A study of Homo sapiens with 6 samples.

Results

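RIP-seq peaks that fell inside short protein-coding genes, away from both ends of the gene, were described in cells overexpressing SNRPD2. A peak was taken when it was at most 1000 bp wide and its summit lay in exactly 1 gene of the RefSeq GRCh38 table. That gene had to be protein-coding and 5 to 20 kb long, and the summit had to lie more than 500 bp from its 5′ end and more than 2000 bp from its 3′ end. Of 256139 peaks on the nuclear chromosomes, 206853 were at most 1000 bp wide, and 10477 of these met the rule. They numbered 2408, 6686 and 1383 in replicates 1, 2 and 3, which is 7.998%, 4.15% and 8.75% of the narrow peaks of each replicate. The rule used position, width and gene annotation, and no peak height. The width limit had little on its edge: in replicate 3, 10 peaks lay within 100 bp below the limit and 9 within 100 bp above it, and the other two replicates had none in either range.

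RNA immunoprecipitation followed by sequencing (RIP-seq) was carried out in HEK293T, an established human embryonic kidney line, with 3 samples labelled SNRPD2OE (overexpression of SNRPD2) and 3 labelled Ctrl. The series examines how SmD2, the product of SNRPD2, interacts with pseudouridine, a base that the enzyme PUS7 makes from uridine, and with mRNA splicing. All values below come from the peak lists of the 3 SNRPD2OE samples. The Ctrl samples were not analysed here, and no difference between the genotypes was measured. The labels do not say how SNRPD2 was overexpressed or whether replicates came from separate cultures, so the spread between replicates may be technical.

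SmD2 is one of the Sm proteins, which form a ring around the U1, U2, U4 and U5 small nuclear RNAs (snRNAs) of the spliceosome. The ring is loaded in the cytoplasm by the SMN complex after some Sm proteins have been methylated on arginine. Most of the length of a human protein-coding gene is intron, which leaves the transcript by splicing, and short genes hold a larger share of exon than long ones. The table used here gives whole gene spans, so a peak is placed by its distance from the gene ends and is not assigned to an exon or an intron.

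Sequence was available for the part of these genes that lies in a RefSeq start window, which runs from 250 bases before to 50 bases after an annotated start. Such windows made up 262.672 kb, or 0.619% of the length examined, and 79 of them held a summit. In 10 windows a summit was found in at least 2 replicates, and 4 of these are printed from RefSeq GRCh38.p14: those with at least 20 bases under peaks of 2 or more replicates, and YIF1B, the window with a summit in all 3. They show the letters that the peaks covered within the window, in the sense strand of the gene, with capitals for bases under peaks of 2 or more replicates. Peaks that ran past a window edge were cut there, so shared bases were counted within the window only.
BCL3, chr19:44748607-44748757, plus strand: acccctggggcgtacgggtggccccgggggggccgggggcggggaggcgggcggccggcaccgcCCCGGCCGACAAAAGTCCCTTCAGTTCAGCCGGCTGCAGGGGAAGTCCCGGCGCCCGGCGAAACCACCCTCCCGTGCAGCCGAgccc
STK25, chr2:241508495-241508549, minus strand: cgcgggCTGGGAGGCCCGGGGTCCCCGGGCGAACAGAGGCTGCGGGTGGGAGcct
TBCB, chr19:36115528-36115637, plus strand: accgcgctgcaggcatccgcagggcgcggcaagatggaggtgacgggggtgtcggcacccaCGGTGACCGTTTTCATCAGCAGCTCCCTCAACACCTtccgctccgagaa
YIF1B, chr19:38315731-38315885, minus strand: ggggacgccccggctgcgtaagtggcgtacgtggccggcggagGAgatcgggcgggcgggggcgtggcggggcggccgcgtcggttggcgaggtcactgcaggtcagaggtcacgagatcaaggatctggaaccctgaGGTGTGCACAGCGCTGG

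BCL3 encodes a nuclear IκB family protein, STK25 a serine/threonine kinase, TBCB a tubulin-folding cofactor and YIF1B a protein of vesicle transport at the Golgi. The BCL3 stretch had 83 shared bases, and each of its peaks, in replicates 1 and 2, rested on 2 reads at the summit. The STK25 stretch had 46 shared bases under summits of 11 and 12 reads in replicates 2 and 3, and the TBCB stretch had 36 under summits of 17 reads in both replicates 1 and 2. The YIF1B peaks had 4, 5 and 8 reads, and 19 bases of the window lay under 2 of them. These bases formed separate runs that belonged to different pairs of replicates, so no base of the window lay under all 3. So the stretch with most shared bases rested on the fewest reads. G and C made up 78.8%, 80.0%, 65.5% and 71.6% of the BCL3, STK25, TBCB and YIF1B stretches. The motif TNTAA or TNTAG, the letters around uridines that PUS7 is known to modify, was searched in the sense strand of whole windows. It stood in 40.5% of the 79 windows with a summit and in 58.8% of the 918 windows whose midpoint lay in the length examined. The 79 were taken wherever their midpoint lay, so the sets were defined by different rules. On either strand the shares were 55.7% and 73.7%. The windows with a summit were richer in G and C, with a median of 68.0% against 62.7%. None of the 4 printed stretches held the motif. Peak density in the windows was 0.0533, 0.240 and 0.0343 peaks per kb in replicates 1, 2 and 3, beside 0.0568, 0.158 and 0.0326 over all of the length examined.

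Most peaks were low, on few reads. Within the limit of 1000 bp set by the rule, their median width was 83, 47 and 71 bp in replicates 1, 2 and 3, and the widest spanned 765, 520 and 990 bp. The fold enrichment that the authors deposited for each peak, which compares the summit with the local background, had a median of 2.76, 1.94 and 2.66 and reached 8.87, 10.5 and 6.78. The number of reads at each summit was recovered from the deposited fold and p-value. It had a median of 7, 2 and 8 reads and a highest value of 65, 73 and 57. Replicate 2 stood apart, with the most peaks and the fewest reads beneath them. Of its 6686 peaks, 3231 (48.3%) rested on 1 read, against 0 in replicate 1 and 46 (3.33%) in replicate 3. In the deposited fold and p-value 1 read was worth 0.599, 1 and 0.254 in replicates 1, 2 and 3. The same number of reads, or a threshold such as 10 reads, is therefore not the same peak strength in each replicate. How much of the contrast between replicates follows from this scale was not tested. At least 10 reads stood under 815, 1083 and 535 peaks, or 33.8%, 16.2% and 38.7% of each list. Among all narrow peaks, whether in a short gene or not, 21.6%, 5.22% and 33.3% had at least 10 reads, so the share was larger inside short genes in each replicate. The authors' −log10 q was 0 for 82.2%, 76.5% and 87.3% of the peaks, and only 91, 326 and 45 of them reached 1.3, the equivalent of a q-value of 0.05. Replicate 3 also held 49284 peaks wider than 1000 bp, 847 of them with a summit inside the length examined, and these are not counted here.

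**Figure D1:**
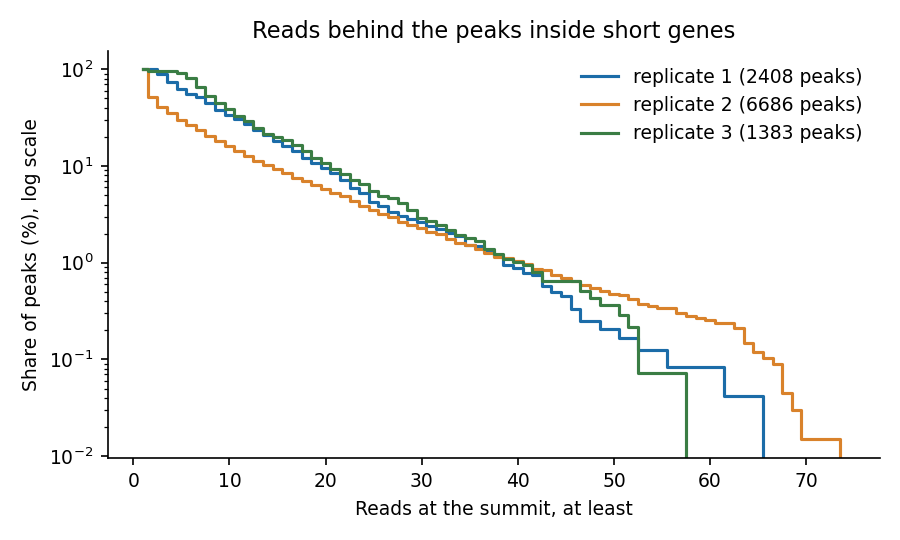
Share of the peaks inside short genes, in percent on a log scale, that had at least the number of reads on the horizontal axis at the summit; each line is 1 replicate. The line of replicate 2 drops at once, since 48.3% of its peaks had 1 read, and the lines of replicates 1 and 3 lie close together until they end at 65 and 57 reads.

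Density was taken as peaks per kb of counted length, which is the part of a gene between the margins that lies in no other gene. Of 5827 protein-coding genes of 5 to 20 kb, 5187 had some counted length and 640 had none; the median was 7.69 kb, the range 0.026 to 17.5 kb and the sum 42420 kb. Over these genes the density was 0.0568, 0.158 and 0.0326 peaks per kb in replicates 1, 2 and 3 (mean 0.0823 ± 0.0663, SD, n = 3). The SD was of the size of the mean, with the density of replicate 2 far above the other two. With peaks of at least 10 reads only, the densities were 0.0192, 0.0255 and 0.0126 peaks per kb, which brings the replicates closer together. The rest of the narrow peaks in short genes fell outside the rule. Of the 4534, 12835 and 2928 narrow peaks with a summit in any short gene, 598, 2187 and 480 lay in more than 1 gene. A further 487, 844 and 384 lay in the first 500 bp and 721, 2113 and 449 in the last 2000 bp of a gene whose strand was given. For 1264 genes the strand was not given, and a summit there was counted only if it was more than 2000 bp from both ends, which left 171, 646 and 108 peaks undecided.

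Within each replicate the peaks were denser in short genes than in longer genes treated by the same rule. Protein-coding genes of 20 to 100 kb had 0.0340, 0.128 and 0.0197 peaks per kb, and genes over 100 kb had 0.00979, 0.0586 and 0.00361. Density in short genes was thus 1.67, 1.23 and 1.65 times that of genes of 20 to 100 kb (mean log2 ratio 0.59 ± 0.25, SD, n = 3, higher in 3 of 3 replicates). Against genes over 100 kb it was 5.80, 2.69 and 9.03 times as high (mean log2 ratio 2.38 ± 0.88, SD, n = 3, higher in 3 of 3). Each comparison gave p = 0.25 by an exact two-sided sign-flip permutation test over replicates, the smallest p that 3 replicates allow, and 0.3 after Benjamini-Hochberg adjustment over the 6 comparisons of density made here. The design therefore cannot reach a p of 0.05. Among peaks of at least 10 reads the mean ratios rose to 2.40 against genes of 20 to 100 kb and 22.3 against genes over 100 kb, from 1.503 and 5.20 for all peaks. With wide peaks included the mean ratios were 1.32 against genes of 20 to 100 kb and 3.22 against genes over 100 kb. Wide peaks were almost all in replicate 3, with 49284 against 2 and 0 in replicates 1 and 2. Its log2 ratio fell from 0.72 to 0.16 against genes of 20 to 100 kb. Against genes over 100 kb it fell from 3.17 to 1.10. Replicate 3 then had the lowest of the ratios, so its high ratios above depend on the width limit.

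**Figure D2:**
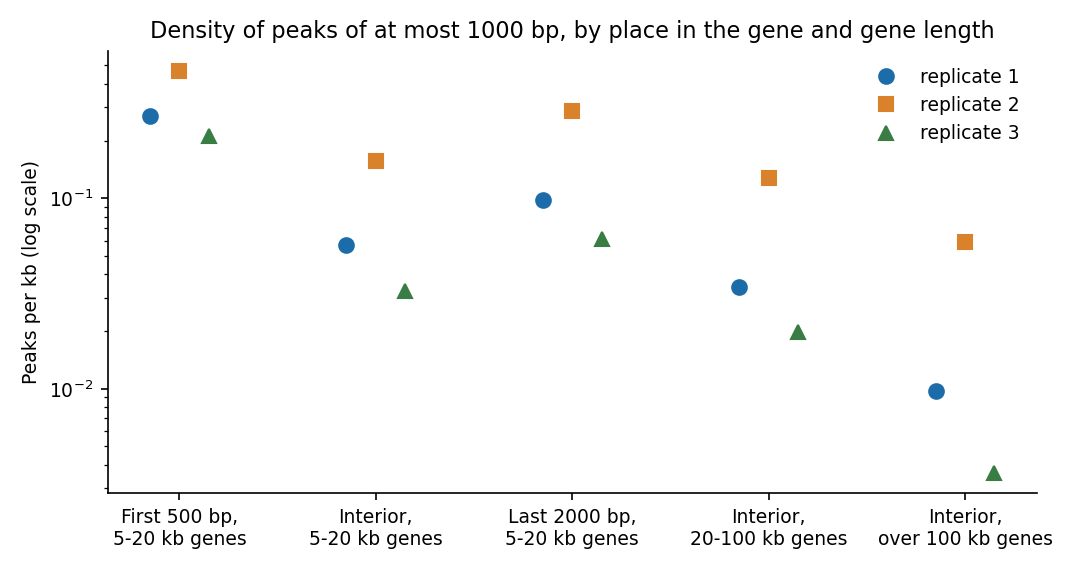
Density of peaks of at most 1000 bp, in peaks per kb on a log scale, by place in the gene and gene length; each point is 1 replicate. In every replicate the density fell from the first 500 bp of short genes to their interior, and from the interior of short genes to that of genes of 20 to 100 kb and over 100 kb (0.0568, 0.0340 and 0.00979 in replicate 1).

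Within the range of 5 to 20 kb, density differed little between classes of gene length when all peaks were counted. Genes of 5 to 10 kb had 0.0625, 0.160 and 0.0305 peaks per kb and genes of 15 to 20 kb had 0.0533, 0.152 and 0.0316, with 0.0572, 0.162 and 0.0351 for those between. The ratio of the shortest to the longest class was 1.17, 1.05 and 0.967 (mean log2 ratio 0.09 ± 0.14, SD, n = 3; exact sign-flip permutation p = 0.5, adjusted 0.5), so its direction differed between replicates. Among peaks of at least 10 reads the shorter genes were the denser in each replicate, with a mean ratio of 1.36 and log2 ratios of 0.06 to 0.70 (exact sign-flip permutation p = 0.25). At the lower limit of length, genes of 5 to 6 kb had 0.0624, 0.1497 and 0.0258 peaks per kb and genes of 4 to 5 kb, just outside, 0.0779, 0.191 and 0.0336. At the upper limit, genes of 19 to 20 kb had 0.0549, 0.1498 and 0.0363 and genes of 20 to 21 kb had 0.0514, 0.152 and 0.0263.

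Along the gene, density was lowest some way in from the 5′ margin and rose toward the 3′ side. In genes with a given strand, the stretch between the margins was divided into 3 equal parts. The part nearest the 5′ end had 0.0484, 0.152 and 0.0326 peaks per kb, the middle part 0.0551, 0.1502 and 0.0330 and the part nearest the 3′ end 0.0736, 0.176 and 0.0384. The last was the highest in each replicate. The ratio of the 5′ part to the 3′ part was 0.658, 0.863 and 0.848 (mean log2 ratio −0.35 ± 0.22, SD, n = 3, lower in 3 of 3; exact sign-flip permutation p = 0.25, adjusted 0.3). Among peaks of at least 10 reads the mean log2 ratio was −0.28 and 1 of the replicates had the opposite direction, with a log2 ratio of 0.09. Divided into 10 equal parts, the stretch was not graded throughout. The first of the 10 had 0.0541, 0.187 and 0.0425 peaks per kb, the third 0.0424, 0.131 and 0.0268 and the last 0.0801, 0.2003 and 0.0419. The third was thus the lowest in each replicate, and in replicate 3 the first stood as high as the last.

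The ends that the rule leaves out were denser than the interior. The first 500 bp of short genes held 0.269, 0.466 and 0.212 peaks per kb, against 0.0590, 0.160 and 0.0346 for the interior of the same genes, a ratio of 4.56, 2.92 and 6.12. The next 500 bp, which the rule admits, held 0.0613, 0.203 and 0.0496. Hence most of the excess at the 5′ end lay outside the peaks described here. The last 2000 bp held 0.0983, 0.288 and 0.0612 peaks per kb, which was 1.67, 1.81 and 1.77 times the interior. Both ratios were above 1 in 3 of 3 replicates, with an exact sign-flip permutation p of 0.25 and an adjusted value of 0.3. Just inside the 3′ margin, 2000 to 2500 bp from the end, density was 0.0791, 0.208 and 0.0404, close to the 0.0743, 0.233 and 0.0380 found 1500 to 2000 bp from it.

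**Figure D3:**
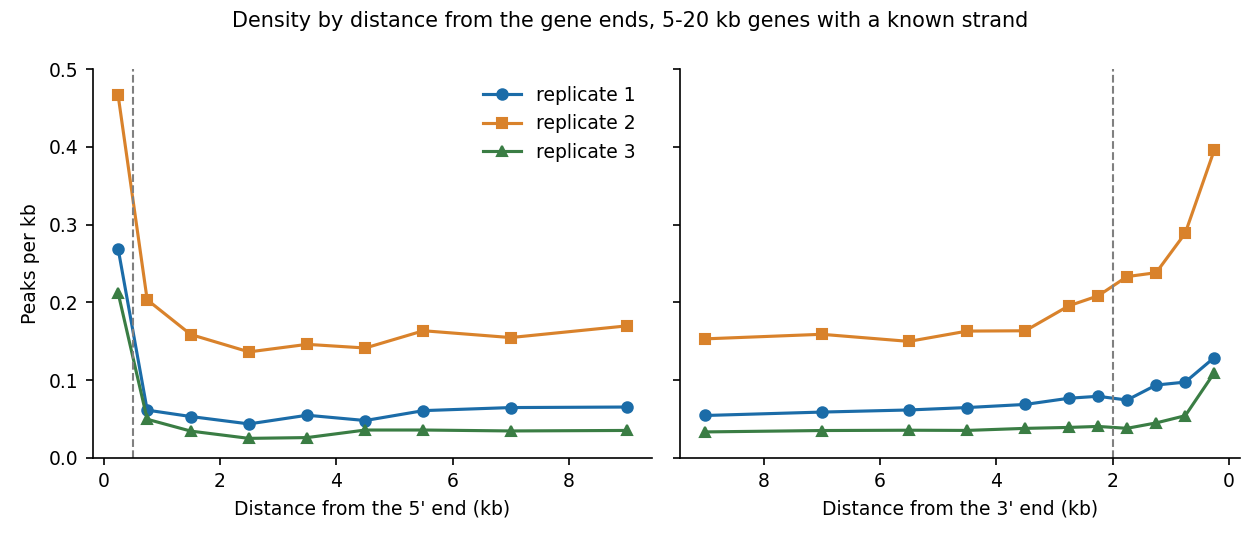
Density of narrow peaks, in peaks per kb, against the distance in kb from the 5′ end (left) and the 3′ end (right) of genes of 5 to 20 kb with a given strand; each line is 1 replicate and the dashed lines mark the margins of the rule. Density was highest in the first 500 bp (0.269, 0.466 and 0.212 in replicates 1, 2 and 3), was low from about 1 kb on and rose again over the last 2000 bp.

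The peaks were spread thinly over many genes. At least 1 peak was found in 1324 (25.5%), 2838 (54.7%) and 871 (16.8%) of the 5187 genes in replicates 1, 2 and 3. In all 3 replicates a peak was found in 468 genes (9.02%), in exactly 2 in 927 (17.9%), in exactly 1 in 1775 (34.2%) and in none in 2017 (38.9%). Leaving out replicate 3 raised the number of genes with a peak in every remaining replicate to 1105, against 531 without replicate 2 and 695 without replicate 1. With peaks of at least 10 reads, 167 genes (3.22%) had one in all 3 replicates, and with lists of equal length 155 did. A single peak was the rule: it was all that 57.6%, 44.4% and 63.1% of the genes with any peak had, and 57, 319 and 20 genes had 5 or more. Among genes with a peak the median density was 0.174, 0.221 and 0.149 peaks per kb. The share of genes with a peak in all 3 replicates was higher with more counted length: 1.75% up to 2.5 kb, 2.03% from there to 5 kb, 8.68% up to 10 kb and 15.3% above. Over the 5133 genes with at least 1 kb, Spearman's rank correlation of gene density was 0.35 between replicates 1 and 2, 0.37 between 1 and 3 and 0.20 between 2 and 3. These are descriptions across genes, which share library and depth within a replicate.

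By chromosome, density was highest on chromosome 16 in replicates 1 and 3, with 0.0870 and 0.0438 peaks per kb, and was 0.171 there in replicate 2. It was lowest of the autosomes on chromosome 13 in each replicate, with 0.0140, 0.123 and 0.00931 peaks per kb over 58 genes. Chromosome 22, with 0.0654, 0.187 and 0.0371, was the highest in replicate 2. No peak fell in the 4 genes counted on chromosome Y.

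Ranked by the mean of their density percentile over the replicates, 12 genes led those with a peak in all 3 replicates. HSP90AB1, the constitutive cytosolic HSP90 chaperone (chr6:44246194-44253883), was first, with 5, 8 and 5 peaks in 5.19 kb of counted length, or 0.964, 1.54 and 0.964 peaks per kb. The highest summits in HSP90AB1 had 55, 65 and 57 reads, where the highest of all these peaks had 65, 73 and 57, and none of its peaks rested on 1 read. IRGQ, of the immunity-related GTPase family (chr19:43584367-43596134), had 6, 9 and 6 peaks in 9.27 kb, or 0.648, 0.971 and 0.648 per kb, on summits of at most 10, 9 and 8 reads. So HSP90AB1 and IRGQ stood close in rank with very different numbers of reads. SIRT7, a nucleolar NAD-dependent deacylase, had 3, 2 and 2 peaks in 2.24 kb. NDUFV1, a core subunit of respiratory complex I, had 2, 3 and 2 in 3.12 kb, on summits of up to 21, 23 and 25 reads. PRMT5, the arginine methyltransferase that modifies Sm proteins, had 2, 4 and 1 in 2.87 kb, on summits of up to 32, 29 and 21 reads. Small counted length lay behind several of these ranks, as 1 peak in each replicate placed SHMT2, a mitochondrial enzyme of folate metabolism, among the 12 with 1.22 kb.

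The other genes of the 12 had from 1 to 12 peaks per replicate. TADA3, an adaptor of histone acetyltransferase complexes, had 1, 1 and 2 peaks, and RTL6, a gene derived from a retrotransposon, had 4, 2 and 2. TMEM106C, a transmembrane protein, had 3, 2 and 1, and RND2, a small GTPase, had 1, 3 and 2. EIF5, which triggers GTP hydrolysis by the initiation factor eIF2, had 3, 8 and 4 peaks in 8.16 kb. LLGL1, a regulator of cell polarity (chr17:18225635-18244875), had 11, 12 and 7 peaks in 16.7 kb, or 0.657, 0.717 and 0.418 per kb, and so had the most peaks of the 12 genes. Summits in LLGL1 had at most 13, 19 and 12 reads. Counting only peaks of at least 10 reads, RND2, RTL6 and TADA3 had none, and the mean density fell to 0.0360 peaks per kb in IRGQ, 0.149 in SIRT7 and 0.319 in LLGL1. All peaks of HSP90AB1, EIF5, NDUFV1, PRMT5, SHMT2 and TMEM106C had at least 10 reads.

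**Figure D4:**
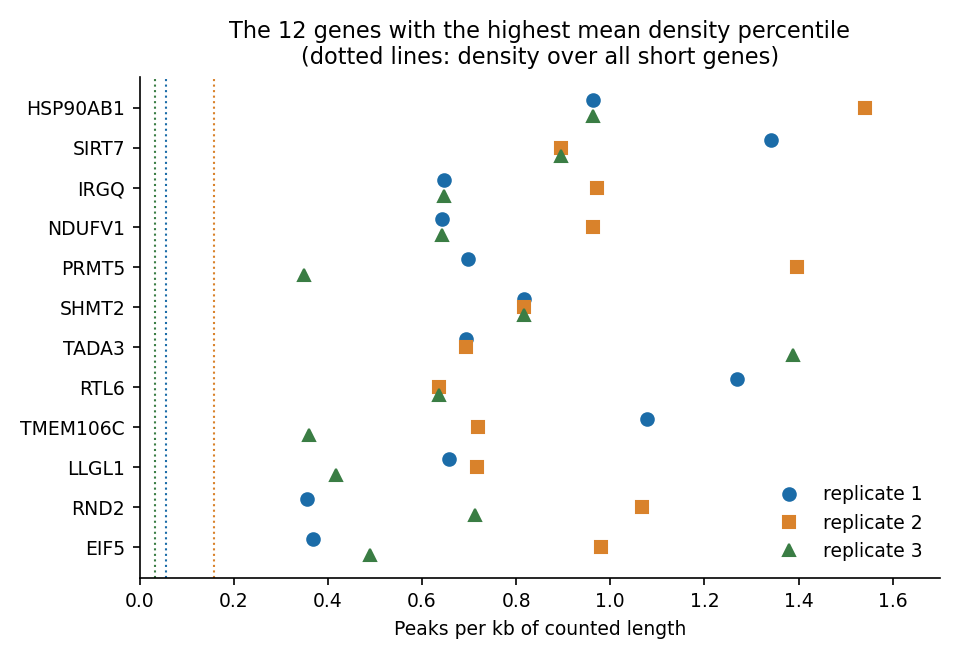
Peaks per kb of counted length in the 12 genes with the highest mean density percentile; each point is 1 replicate and the dotted lines give the density over all short genes. The 12 genes were chosen for high density and a peak in each replicate. That every point lies right of its own replicate's dotted line (0.0568, 0.158 and 0.0326) follows from this choice. The replicates of a gene can lie far apart, as in PRMT5 with 0.698, 1.40 and 0.349.

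The 3 genes with the most peaks were also taken in each replicate. In replicate 1 they were FASN, the fatty acid synthase, with 15, 8 and 7 peaks in replicates 1, 2 and 3, then LLGL1 and STK25, the latter with 9, 9 and 2. In replicate 3 they were DHX38, a helicase of the second step of splicing, with 5, 4 and 8 peaks, MCM4, a subunit of the replicative helicase, with 5, 5 and 7, and P4HB, protein disulfide isomerase, with 4, 7 and 7. All of these had peaks in each replicate. In replicate 2 the leading genes were HELZ2, a helicase-like coactivator, with 1, 23 and 0 peaks, PLXNA3, a semaphorin receptor, with 3, 19 and 0, and ACAP3, an Arf GTPase-activating protein, with 6, 18 and 0. Of the peaks of replicate 2 in HELZ2, PLXNA3 and ACAP3, 19, 15 and 14 rested on 1 read, and none of the 3 genes had a summit above 3 reads there. Most peaks of replicate 2 in these 3 genes thus had a single read, while no peak of FASN or LLGL1 did in any replicate.

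Few peaks lay at the same place in different replicates. With 1 shared base counted as overlap, 775 peaks of replicate 1 (32.2%) met one of replicate 2 and 375 (15.6%) met one of replicate 3. Replicate 2 had 785 peaks (11.7%) that met one of replicate 1 and 463 (6.92%) that met one of replicate 3. For replicate 3 the numbers were 387 (28.0%) with replicate 1 and 466 (33.7%) with replicate 2. Each share is of its own list, the lists being unequal in length, and the mean share was 21.4%. Among peaks of at least 10 reads the mean share was 31.3%. It was 13.7% with lists of equal length, and 11.7% when a reciprocal overlap of 50% was required.

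In 162 segments, peaks of all 3 replicates covered the same bases over at least 20 bp. They lay in 127 genes, 27.1% of the 468 genes with a peak in every replicate and 2.45% of all genes counted. Their median length was 54 bp (20 to 292 bp), the 3 summits lay a median of 46 bp apart, and 93 segments had at least 10 reads in each replicate. Segments of a gene that shared a peak of any replicate were joined, which left 156 separate regions. At most 3 regions lay in a gene, and 6 genes had that many: WDR74, UNG, RER1, FASN, HSP90AB1 and TBRG4. The segment with the highest −log10 p in its weakest replicate was in WDR74, which encodes a WD-repeat protein of ribosome assembly. It lay at chr11:62840926-62841134, with its midpoint 779 bp from the 5′ end of the gene. It had 22, 23 and 23 reads and a deposited fold of 7.09, 8.55 and 5.54. This was the only segment whose −log10 q reached 1.3 in all 3 replicates. Its nearer edge lay 485 bp from RNU2-2, a gene for the Sm-bound U2 snRNA (chr11:62841619-62841809) inside the 5′ end of the WDR74 span. By gene rather than segment, MRPS11 and PEX19 as well as WDR74 had a peak past that level in each replicate.

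The next segments by the same measure lay in genes of varied function. GRHPR, glyoxylate and hydroxypyruvate reductase, had one at chr9:37436772-37436842 with 17, 22 and 22 reads. USP1, a deubiquitinase of DNA repair, had one at chr1:62439294-62439429 with 17, 17 and 18 reads. GEMIN4, a protein of the SMN complex that loads the Sm ring onto snRNAs, had one at chr17:747748-747825 with 19, 22 and 21 reads and folds of 3.798, 3.14 and 4.09. The 3 summits in GEMIN4 lay within 1 bp of each other, which was closer than in GRHPR (31 bp) or USP1 (33 bp). CTSD, the lysosomal protease cathepsin D, had one at chr11:1757352-1757511 with 13, 8 and 8 reads. FBRS had segments at chr16:30667016-30667103 and chr16:30667192-30667233, each covered by the same peak of replicate 1 and of replicate 3, so they are not separate events. DERL2, of the pathway that removes misfolded proteins from the endoplasmic reticulum, had one at chr17:5486095-5486146 with 11, 13 and 11 reads. The midpoint of the DERL2 segment lay 697 bp from the 5′ end.

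Peaks near small RNA genes were a small part of the whole. Within 200 bp of a small RNA gene lay 13, 28 and 7 peaks, or 0.540%, 0.419% and 0.506% of each list, while 0.188% of the counted length lay that near.

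Of 15 lists of genes with a shared function, 12 had a larger share of their counted genes with a peak in all 3 replicates than the 9.02% of all short genes. The lists hold from 4 to 41 counted genes, they are described without a test, and their counted length was not matched to that of other genes. Among the RNA-binding lists, spliceosomal snRNP and SF3 proteins had a peak in 9, 16 and 11 of 28 genes. As shares these are 32.1%, 57.1% and 39.3%, beside 25.5%, 54.7% and 16.8% of all short genes. A peak in all 3 replicates was found in SF3B2, SNRPA, PRPF31 and PRPF4 (14.3%). SF3B2, of the U2 snRNP, had 5, 5 and 1 peaks, PRPF31, of the U4/U6.U5 tri-snRNP, had 3, 4 and 1, and PRPF4, a U4/U6 protein, had 3, 5 and 2. The summits in SF3B2 had up to 16, 26 and 23 reads. SR proteins and hnRNPs had a peak in 6, 15 and 9 of 19 genes (31.6%, 78.9% and 47.4%) and in all 3 replicates in 5 (26.3%). Of these HNRNPU, which binds nascent RNA and chromatin, had 1, 8 and 6 peaks, U2AF2, which binds the polypyrimidine tract at 3′ splice sites, had 4, 5 and 6, and SRSF9 had 2, 1 and 1. U2AF2 was thus the more even of the first pair, with 0.233, 0.291 and 0.349 peaks per kb against 0.0861, 0.689 and 0.517 for HNRNPU.

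Pseudouridine synthases and box H/ACA proteins, which make pseudouridine with or without a guide RNA, had a peak in 6, 6 and 3 of 8 genes, and in all 3 replicates in RPUSD4, TRUB2 and DKC1. RPUSD4, a mitochondrial synthase, had 2, 1 and 1 peaks, TRUB2, another, had 1, 2 and 2, and DKC1, the synthase of the box H/ACA complex, had 1, 3 and 1. The shares over all short genes were 25.5%, 54.7% and 16.8%, with 9.02% for all 3 replicates together. These genes had few peaks, so 3 of 8 rests on 1 peak in at least 1 replicate in each. The study's own genes could not be counted, since SNRPD2 spans 4.86 kb and PUS7 65.8 kb, outside the length range.

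Lists of protein synthesis differed among themselves. Translation initiation and elongation factors had a peak in 12, 16 and 7 of 20 genes (60%, 80% and 35%). A peak in all 3 replicates was found in EIF3I, EIF2B2, EIF5, EIF3D and PABPC1 (25%, beside 9.02% of all short genes). The median density of this list was 0.0687, 0.303 and 0 peaks per kb, against 0, 0.0812 and 0 over all short genes. EIF2B2, of the exchange factor of eIF2, had 3, 3 and 1 peaks and EIF3D, of the initiation factor eIF3, had 1, 9 and 2. Aminoacyl-tRNA synthetases had a peak in 6, 6 and 3 of 6 genes (100%, 100% and 50%). The genes with one in all 3 replicates (50%) were VARS1 (6, 4 and 1 peaks), KARS1 (2, 8 and 2) and AIMP2 (1, 3 and 1). AIMP2 is a scaffold of the synthetase complex and not an enzyme. Cytosolic ribosomal proteins had a peak in 4, 17 and 2 of 31 genes and no gene of the list had one in all 3 replicates. As shares these are 12.9%, 54.8% and 6.45%, beside 25.5%, 54.7% and 16.8% of all short genes. RPL3 had 1, 3 and 0 peaks, with a summit of 69 reads in replicate 2, and RPL14 had 0, 3 and 1. Ribosomal protein genes have many pseudogene copies; how the counting divided reads among them was not tested, and the counts of this list are uncertain. Mitochondrial ribosomal proteins had a peak in 11, 19 and 11 of 37 genes (29.7%, 51.4% and 29.7%), in replicate 2 below the share of all short genes. In 6 of them (16.2%) a peak was found in all 3 replicates. MRPS11 had 4, 4 and 3 peaks with summits of up to 50, 49 and 50 reads, MRPL10 had 2, 1 and 2, and MRPL44 had 2, 3 and 2.

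**Figure D5:**
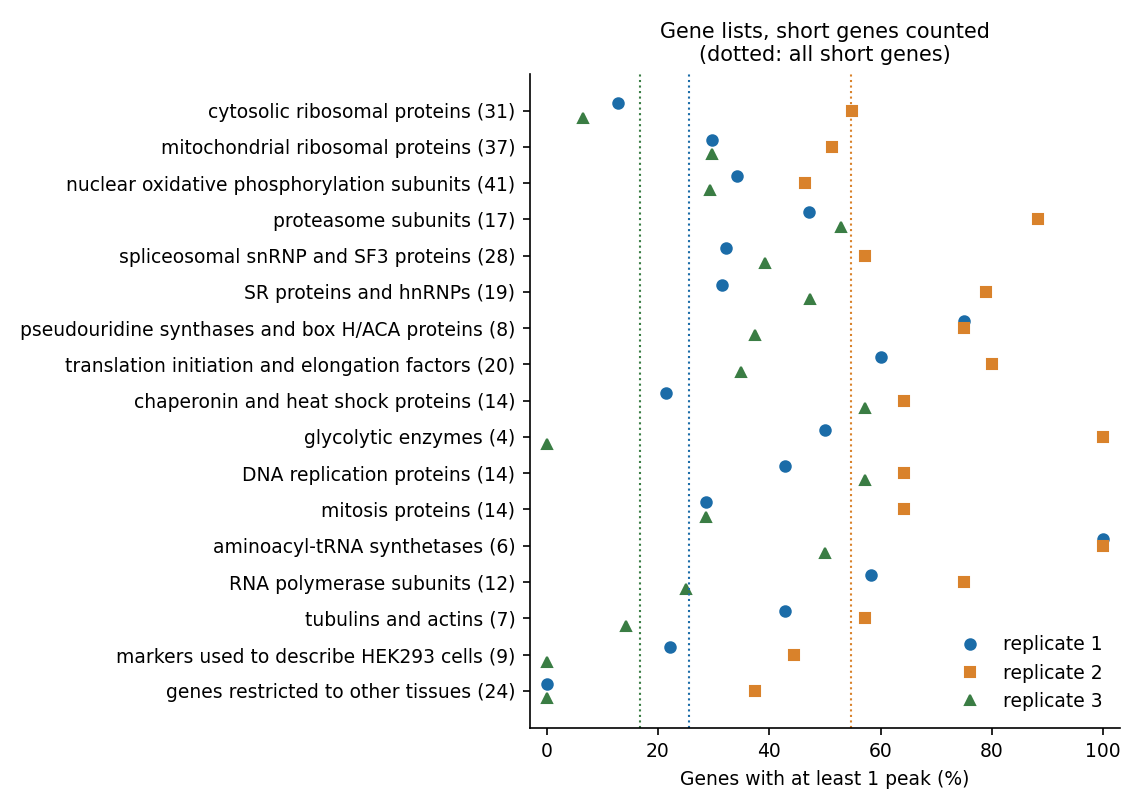
Share of the counted short genes of each list, in percent, with at least 1 peak; the number of genes counted stands in brackets, each point is 1 replicate and dotted lines give the share over all short genes (25.5%, 54.7% and 16.8%). Genes restricted to other tissues lie at 0% in replicates 1 and 3 and at 37.5% in replicate 2, and lists of under 10 genes move by large steps.

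Lists of protein quality control, energy metabolism and growth gave the following counts. For comparison, 25.5%, 54.7% and 16.8% of all short genes had a peak in replicates 1, 2 and 3. Proteasome subunits had a peak in 8, 15 and 9 of 17 genes (47.1%, 88.2% and 52.9%) and in all 3 replicates in 5, or 29.4%. PSMD3, of the regulatory lid, had 2, 1 and 2 peaks, and PSMC4 and PSMC1, ATPases of the base, had 1, 4 and 1 and 1, 4 and 2. Chaperonin and heat shock proteins had a peak in 3, 9 and 8 of 14 genes (21.4%, 64.3% and 57.1%). Genes with one in all 3 replicates were HSP90AB1 and STIP1. STIP1, the HSP70 to HSP90 adaptor, had 1, 5 and 2 peaks, and DNAJA1 had 0, 4 and 2. Of the list, HSP90AB1 alone had 5 or more peaks in every replicate. Nuclear subunits of oxidative phosphorylation had a peak in 14, 19 and 12 of 41 genes (34.1%, 46.3% and 29.3%). A peak in all 3 replicates was found in 4, a share of 9.76% that is near the 9.02% of all short genes. NDUFA11, an accessory subunit of complex I, had 2, 1 and 1 peaks. Of 4 glycolytic enzymes, PGAM1 had 1, 1 and 0 peaks, LDHA 1, 2 and 0 and ENO2 0, 3 and 0.

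DNA replication proteins had a peak in 6, 9 and 8 of 14 genes, and in all 3 replicates in CDC6, POLD2, MCM7 and MCM4. Their shares were 42.9%, 64.3% and 57.1%, beside 25.5%, 54.7% and 16.8% of all short genes, and 28.6% in all 3 replicates beside 9.02%. MCM7, another subunit of the replicative helicase, had 4, 5 and 1 peaks with summits of up to 45, 39 and 36 reads, and CDC6, which loads that helicase, had 2, 6 and 1. Mitosis proteins had a peak in 4, 9 and 4 of 14 genes (28.6%, 64.3% and 28.6%). Only PLK1, a mitotic kinase with 1, 2 and 3 peaks, had one in all 3 replicates, a share of 7.14% that is below 9.02%. CDC25B had 4, 3 and 0 peaks and SPC24 had 0, 1 and 1. RNA polymerase subunits had a peak in 7, 9 and 3 of 12 genes (58.3%, 75% and 25%) and in 3 in all 3 replicates (25%). POLR2E, shared by the nuclear polymerases, had 2, 2 and 1, and POLR1F, of RNA polymerase I, had 1, 3 and 2. Among 7 tubulins and actins, TUBE1 had 3, 1 and 1 peaks, TUBB3 had 2, 4 and 0 and TUBG1 had 2, 0 and 0.

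Markers of the cell line and of other tissues served as a check of the background. Of 9 short markers used to describe HEK293 cells, 2, 4 and 0 had a peak (22.2%, 44.4% and 0%). All of these shares were below the 25.5%, 54.7% and 16.8% of all short genes. VIM, the intermediate filament vimentin, had 1, 2 and 0 peaks with summits of up to 48 and 50 reads in replicates 1 and 2. INA, a neuronal intermediate filament, had 1, 1 and 0, and NEFL, the neurofilament light chain, had 0, 2 and 0. Over whole gene spans of any length, 7, 11 and 3 of 13 such markers (53.8%, 84.6% and 23.1%) had a narrow peak, beside 45.3%, 76.7% and 30.3% of all 20037 protein-coding genes. VIM and LIN28B had one in all 3 replicates, as did 23.9% of protein-coding genes. Of 24 short genes restricted to other tissues, 0, 9 and 0 had a peak (0%, 37.5% and 0%). This was also below the share of all short genes in each replicate. Over whole spans 5, 30 and 1 of 54 such genes had one (9.26%, 55.6% and 1.85%). TNNI3 alone of this list had one in all 3 replicates (1.85%), beside 23.9% of protein-coding genes. COL1A1, a fibroblast collagen, had 11 peaks in replicate 2, of which 9 rested on 1 read; ALB, the liver's serum albumin, had 5, of which 4 did, and TTR, the plasma carrier transthyretin, had 1, on 1 read. The density of replicate 2 in these tissue-restricted genes was 0.157 peaks per kb, beside 0.158 over all short genes. Counting only peaks of at least 2 reads, it was 0.0242 against 0.0814, in 3 of 24 genes (12.5%) against 34.9% of all short genes, and with at least 10 reads it was 0. In replicate 2 the density in these genes was thus close to that of all short genes when peaks on 1 read were counted, and below it when they were not.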

How the data were processed

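RIP-seq peak lists of the 3 SNRPD2OE samples, a group named in the genotype label, were analysed. The submitters' processing notes name MACS2 2.2.9.1, STAR 2.7.10b, cutadapt 4.2 and the build GRCh38. The sources used here do not give their roles or options, the background library or duplicate removal, and the deposited peaks carry no strand. The lists give no library totals, so depth is unknown apart from the reads at each summit, and duplicates cannot be told from separate molecules. Per peak, the authors deposited a fold (a ratio over background, at the summit), an unadjusted −log10 p-value, a −log10 q-value and a score that repeats the p-value in whole numbers. Peak numbers in the deposited lists start at 829, 5159 and 1884, so earlier-numbered peaks were not analysed here, and a gene without a peak is one without a listed peak.

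Reads at a summit were recovered as the whole number that, with 1 read worth 0.599, 1 or 0.254 in replicates 1, 2 and 3, matched the deposited −log10 p to within 0.002. On the nuclear chromosomes 1 peak, in replicate 3, had no solution. Gene spans, symbols and strands came from RefSeq GRCh38.p14 (59679 genes; 4563 of 5827 short genes had a strand, taken from the table of start windows). Positions were counted from 1. Counting used Python 3.11.15, pandas 2.3.3, numpy 2.4.6 and scipy 1.17.1 and was tested on simulated data. Densities were compared within replicates by exact sign-flip permutation tests over 3 replicates.

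The members and the 17 gene lists (684 genes) were chosen with earlier results of these data known. Named genes were the 12 with the highest mean density percentile among genes with at least 1 kb of counted length and a peak in all 3 replicates, those of the 8 shared segments with the highest lowest −log10 p, the 3 with most peaks in each replicate, up to 3 of each list, SNRPD2 and PUS7. Genes with several shared segments, genes with a peak past the q level in each replicate, and the printed start windows were picked with their values in view. The settings varied were the width limit, margins, length range, read and q thresholds, lists of equal length, other kinds of gene ignored, uncorrected gene length, reciprocal overlap and leaving out each replicate; genes with a strand only was chosen after seeing the data. A few genes picked by the naming rule are not reported here.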

Additional observations from a re-analysis of the deposited data

How the results depend on the processing

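Of 76 values of summary results under the alternatives, 70 either moved by less than the spread between replicates, kept their direction where a ratio was tested, or, for counts, stayed within 1.5 times. The other 6 concern the mean density and the number of genes with a peak in all 3 replicates. With a −log10 q of at least 1.3 the mean density fell to 0.00363 peaks per kb. The number of genes, 468 as reported, was 3 with that q, 167 with at least 10 reads, 155 with lists of equal length and 292 with margins of 1000 bp and 4000 bp. Leaving out 1 replicate gave 531 to 1105. No test could pass a threshold of 0.05 in any of these settings, since the smallest p is 0.25. A value within the wide spread between replicates can still differ greatly in size. The mean density was 0.0191 with at least 10 reads and 0.0260 with lists of equal length, against 0.0823. The log2 ratio of short genes to genes of 20 to 100 kb ranged from 0.40 (no limit on width) to 1.26 (at least 10 reads), and that to genes over 100 kb from 1.69 to 4.48 in the same settings. Restricting the count to genes with a given strand, an alternative chosen after seeing the data, left 405 genes and a mean density of 0.0844. Of 129 densities of single genes under the alternatives, 98 moved by less than the spread between replicates and 31 by more, with no change of sign possible. No paired analysis was possible because only SNRPD2OE samples were analysed here, so no 2 groups with shared replicate numbers were compared; the density ratios were taken within each replicate. Peaks on 1 or 2 reads limit replicate 2 most.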
